A study of Mus musculus with 27 samples.

Results

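Histone genes code for the proteins that package DNA, and the deposited mouse liver table held 79 of them among 54532 genes. They were taken as the protein-coding genes whose symbols begin with Hist1h to Hist4h (67 replication-dependent genes of the histone clusters) or with H2af, H3f3 or H1f0 (12 variant genes). RNA was measured in whole liver of wild-type C57/BL6J mice, in 27 libraries. Sham-operated mice gave 5 libraries (sham). Mice killed 24 h after removal of 70% of the liver gave 4 libraries with etomoxir (PHx24_ETO) and 7 without (PHx24), and mice killed at 48 h gave 4 with etomoxir (PHx48_ETO) and 7 without (PHx48). Etomoxir, which blocks the carnitine palmitoyltransferase step of fatty acid oxidation, was injected into the abdomen at 12.5 mg/kg 4 h before the resection, and mice of the 48 h group had another dose 24 h after it. The labels do not say whether the other mice received a vehicle, whether each library is a separate animal, or the age of the mice. The p-values therefore cover the spread between libraries, which may be technical.

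Replication-dependent histone genes are transcribed together with DNA synthesis in S phase. Their transcripts typically lack introns and end not in a poly(A) tail but just after a stem-loop, which the stem-loop binding protein SLBP holds through processing, export and translation. Variant histones are made outside S phase as well, from genes that mostly have introns and give polyadenylated transcripts, and they replace the canonical proteins in the nucleosome. In liver, resection sends most of the remaining hepatocytes through DNA synthesis within days. The libraries were made from polyadenylated RNA, so a replication-dependent gene is seen here only as far as its transcripts carry a tail or were carried over, and its level is not the level of all its transcripts.

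The stem-loop was searched for after the stop codon in the GENCODE M21 transcripts (GRCm38), on the transcript strand, as 16 letters that read GG, any 3 bases, TT, any base, T, any base, A, any 3 bases and CC. It was found in 46 of 67 replication-dependent genes (68.66%), in 1 of 12 variant genes (8.33%) and in 512 of 20940 other coding genes (2.45%). The other coding genes were those with at least 16 bases after the coding part, while all histone genes were counted. A gene whose annotated transcript stops short of its stem-loop counts as without a match. Some annotated transcripts without a match are short, such as Hist1h4k (312 bases) and Hist1h2bl (381 bases), so a missing match does not show a missing stem-loop. Below are 5 examples, with the 16 letters of the match in capitals and 5 bases on each side where the transcript holds them. They belong to the histone genes with the largest fold changes at 48 h (Hist1h3g, Hist1h3c) and to the most abundant replication-dependent linker histone (Hist1h1c). The others belong to the highest H4 gene (Hist1h4i) and to the single variant with a match (H2afx).
Hist1h3g, chr13:23535884-23535909, plus strand: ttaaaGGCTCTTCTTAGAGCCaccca
Hist1h3c, chr13:23745042-23745067, minus strand: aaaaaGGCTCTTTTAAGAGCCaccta
Hist1h1c, chr13:23739507-23739532, plus strand: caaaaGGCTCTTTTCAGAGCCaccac
Hist1h4i, chr13:22040961-22040986, minus strand: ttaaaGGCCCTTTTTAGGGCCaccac
H2afx, chr9:44335235-44335260, plus strand: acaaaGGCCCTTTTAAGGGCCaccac
The core of Hist1h1c was the most common one, shared by 26 of the 47 stem-loops found.

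Annotated transcripts differed in how far they went past the stem-loop. In 22 replication-dependent genes the annotated transcript ended within 60 bases of it, as in Hist1h3g (47 bases after it), Hist1h4h (46 bases) and Hist1h4m (3 bases). In 24 it ran on for longer, as in Hist1h3c (74 bases), Hist1h4i (330 bases), Hist1h3d (752 bases) and Hist1h1c (840 bases), and the stem-loop of H2afx lay 822 bases before the end of its transcript. In the remaining 21, among them Hist1h2bc, Hist2h2be and Hist1h4k, the annotated transcript held no match after the stop codon. Of all counts on replication-dependent genes, 2.1% fell on the genes that end at the stem-loop, 44.96% on those that run on and 52.94% on those without a match. The medians of the genes' mean FPKM (fragments per kilobase of gene and unit of library size, the deposited level per length) were close together, at 0.193, 0.360 and 0.120 FPKM in the same order, so that a few genes made the difference in counts.

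**Figure D1:**
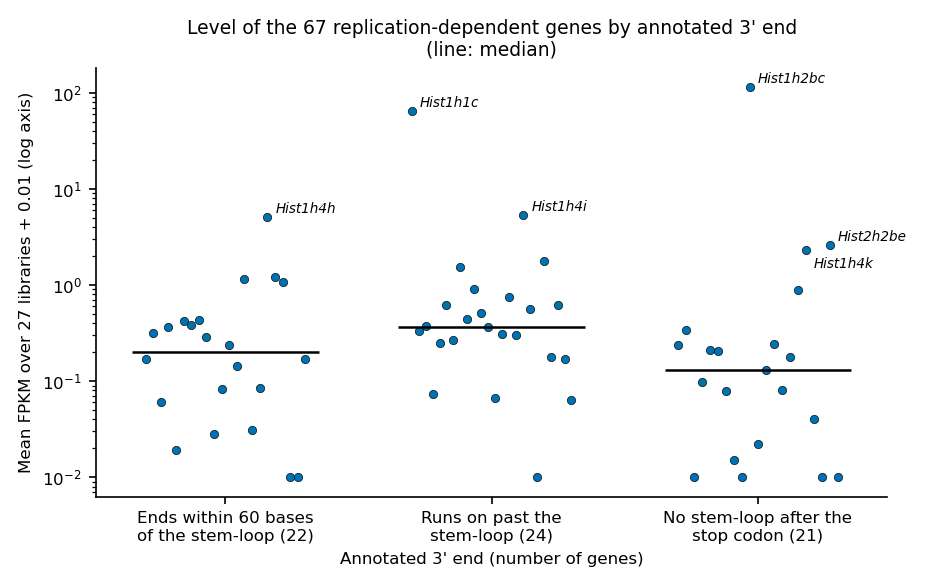
Mean FPKM over the 27 libraries plus 0.01 (log axis) of the 67 replication-dependent genes, by the end of the annotated transcript; points are genes and lines are medians. Hist1h1c (64.5 FPKM) stands alone among the genes that run past the stem-loop. Hist1h2bc (114 FPKM) stands alone among those with no match in the annotated transcript.

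Promoter letters were counted in both classes as a description. In the RefSeq table (GRCm38.p6), 71 of 79 genes had an entry, and the 250 bases before its RefSeq start were searched. The letters CCAAT on either strand were found there in 82.0% of 61 replication-dependent genes, 70.0% of 10 variant genes and 34.5% of all 27025 promoters. TATAAA was found in 47.5%, 10% and 13.0% of the same sets. The octamer ATTTGCAT, known from H2B promoters, was found in 21.3% of replication-dependent genes, 37.5% of the 16 H2B genes among them, 10% of variant genes and 1.6% of all promoters. Each value of 10% is 1 variant gene, H3f3b. Neighbouring genes on opposite strands can share part of these bases, so a match can count for both. The 250 bases before the start are shown for H2afz and Hist1h3g, the variant and the replication-dependent gene with the smallest adjusted p at 48 h among those with an entry, with these letters in capitals (CCAAT reads ATTGG where it lies on the other strand, and no matches overlap).
H2afz, chr3:137864237-137864486, plus strand: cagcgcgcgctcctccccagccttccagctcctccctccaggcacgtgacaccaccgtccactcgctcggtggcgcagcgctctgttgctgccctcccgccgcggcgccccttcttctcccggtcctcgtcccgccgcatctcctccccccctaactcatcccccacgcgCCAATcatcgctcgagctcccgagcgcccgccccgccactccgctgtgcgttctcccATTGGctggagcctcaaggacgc
Hist1h3g, chr13:23535168-23535417, plus strand: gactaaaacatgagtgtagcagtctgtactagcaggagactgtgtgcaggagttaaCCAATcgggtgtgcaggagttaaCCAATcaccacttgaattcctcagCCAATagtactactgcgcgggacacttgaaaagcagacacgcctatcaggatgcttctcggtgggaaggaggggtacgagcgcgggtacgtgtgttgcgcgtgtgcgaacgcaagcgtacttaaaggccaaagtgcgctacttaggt
H2afz held 2 CCAAT and Hist1h3g held 3, and neither held the other letters.

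Total counts ranged from 14903757 to 18446372 per library. Hepatocyte markers (10 genes such as Alb and Apoa1) summed to 26530.07 FPKM or more in every library. Skeletal muscle, pancreas and fat markers stood out in sham 1, sham 2, PHx24 1 and PHx48 3, with a summed muscle level of up to 3980.02 FPKM in sham 1 against a sham median of 3.07 FPKM. PHx24_ETO replicate 2 stood apart on the whole transcriptome, with the lowest correlation with the rest of its group of the 27 libraries (r = 0.9447). In it, 8 S phase genes summed to 26.88 FPKM. The other PHx24_ETO libraries were themselves far apart on these genes, from 37.56 to 156.73 FPKM. Kupffer cell markers summed to 37.95 FPKM in replicate 2, against 57.02 to 81.04 FPKM in the other PHx24_ETO libraries. Values without the libraries named here are given where they bear on a result.

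The replication-dependent genes lie on chromosome 13 (54 genes), chromosome 3 (10), chromosome 11 (2) and chromosome 6 (1), while the variant genes are scattered over 9 chromosomes. Of the 67, 7 had no count in any library and 56 had a mean under 1 FPKM. Hist1h2bc alone took 49.3% of the 120158 counts on the class, and Hist1h2bc and Hist1h1c together took 87.5%. The 12 variant genes held 396359 counts, and 3 of them (H2afb1, H2afb2 and H2afb3) had none. By the filter of at least 1 FPKM in at least 4 libraries, 16 replication-dependent genes and 8 variant genes were tested, and 51 replication-dependent genes were not. Of the 16, 7 (Hist1h4m, Hist1h3g, Hist1h3c, Hist1h3i, Hist1h4c, Hist1h2ae and Hist1h3d) passed only through their 48 h libraries, so the filter favours a higher level at 48 h in them. The other 9 pass without those libraries.

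Near-identical copies limit what a single gene's value means. Of the stretches of 75 bases in a replication-dependent gene, a median of 42.42% also occurred in another transcript, against a median of 6.365% in variant genes. The share was 89.02% in Hist1h4m, 83.43% in Hist1h4n, 78.34% in Hist1h3i, 68.07% in Hist1h4k and 62.58% in Hist2h3c2, whose values are uncertain. At 47.43% in Hist1h2bg and 46.05% in Hist1h3g, it was also above the class median. It was 27.08% in Hist1h2bc and 6.66% in Hist1h1c. Among the variants it was highest in H2afz, at 53.95%. The strand setting of the counting is not given in the sources used here, and exons of 24 replication-dependent and 6 variant genes overlap another annotated gene, which for H3f3a includes the antisense gene H3f3aos.

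As a share of all counts, the replication-dependent class stayed near its sham level at 24 h and was higher at 48 h. Summed over the 67 genes it was 230.33 ± 30.64 CPM (counts over the library's total count, on the usual CPM scale) in sham (SD, n = 5), 204.43 ± 15.33 in PHx24 (SD, n = 7) and 344.95 ± 33.24 in PHx48 (SD, n = 7). The lowest PHx48 library had 300.42 and the highest sham library 265.45, so these groups did not overlap. Without Hist1h2bc and Hist1h1c, the other 65 genes summed to 20.39 ± 5.21, 19.43 ± 4.15 and 54.08 ± 3.99 CPM over the same 3 groups, and the ratio of the means was 2.652 between PHx48 and sham and 0.953 between PHx24 and sham. In bulk liver, fewer cells with a transcript and less of it per cell cannot be told apart.

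As a sum, the variant class was higher than in sham at both times. It summed to 636.12 ± 16.79 CPM in sham (SD, n = 5), 786.53 ± 50.67 in PHx24 (SD, n = 7) and 1181.59 ± 111.16 in PHx48 (SD, n = 7). The lowest PHx24 library (704.46) exceeded the highest sham library (663.93), and the lowest PHx48 library (1083.26) exceeded the highest PHx24 library (866.45). These sums are descriptions, with no test. At 24 h not all variant genes rose, and the median log2 fold change of the 8 tested was −0.073. The sums of both classes rest on library totals. Under that scaling the median log2 fold change of all genes against sham was 0.113 at 24 h and 0.234 at 48 h.

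**Figure D2:**
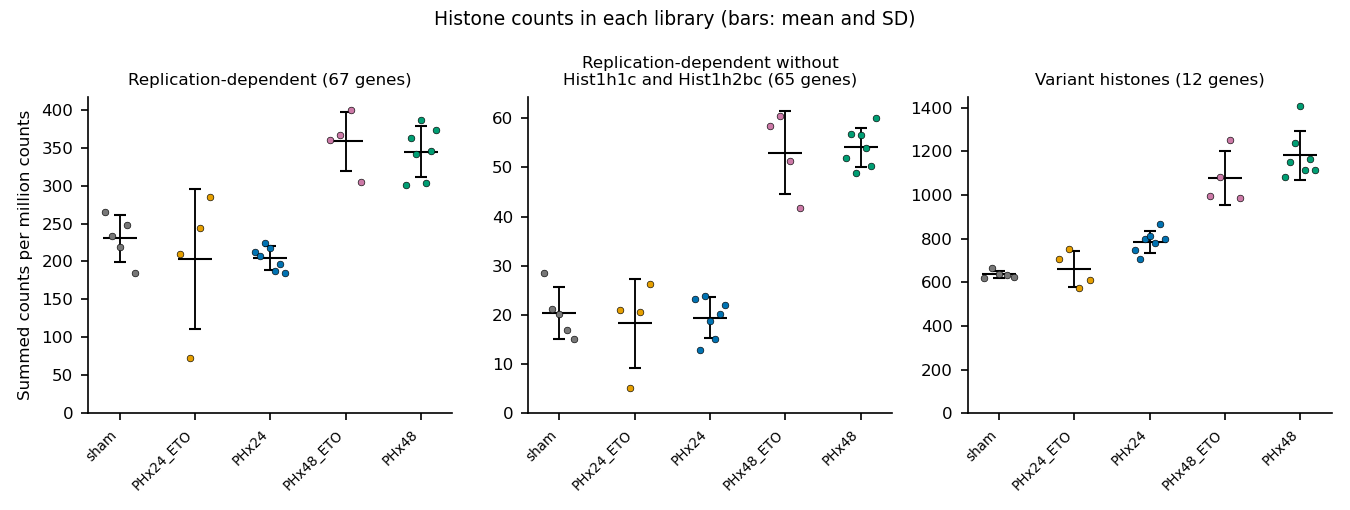
Summed CPM in each library for the 67 replication-dependent genes, for the 65 left without Hist1h1c and Hist1h2bc, and for the 12 variant genes; points are libraries, bars are mean and SD. The middle panel lies near 20 in sham and PHx24 and above 40 in every 48 h library, while the variant panel is already higher in PHx24 than in sham.

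At 24 h, 3 of the 16 replication-dependent genes tested had changed against sham, Hist1h4k upward and Hist1h2bc and Hist1h4h downward. Across all 12376 genes tested with edgeR's quasi-likelihood test (adjusted p under 0.05), 35% were called, 19.1% higher and 15.8% lower. Groups that did not overlap were found for none of the 16 upward and for 2 downward, where 9.41% of all genes were higher and 8.29% lower without overlap. The median log2 fold change was 0.086 over the 16 and 0.008 over all genes tested. At 48 h against sham, 5 of the 9 genes that pass without the 48 h libraries had risen (Hist1h1c, Hist1h2bg, Hist1h4i, Hist1h4k and Hist2h2be), all 5 with no overlap, and none had fallen, where 36.5% of all genes were called, 19.5% higher and 17% lower. Without overlap, 11.6% of all genes were higher and 8.31% lower. The median log2 fold change of the 9 was 1.116, against 0.009 over all genes tested. The 7 genes that passed through the 48 h libraries added 5 calls (Hist1h3c, Hist1h3d, Hist1h3g, Hist1h3i and Hist1h4m), which makes 10 of 16, but these owe their place in the test to the level tested and nothing is read from their number. No gene of the 16 was lower at an unadjusted p under 0.05, and DESeq2, limma on log2(FPKM + 1) and library-total scaling called none lower either. Between PHx48 and PHx24, 4 of the 9 were higher (Hist1h2bc, Hist1h2bg, Hist1h4i and Hist2h2be), all 4 with no overlap, and none lower by edgeR, DESeq2 or limma or at an unadjusted p under 0.05, where 6.19% of all genes were called higher, 5.41% lower and 11.6% in all, and 2.88% were higher and 2.04% lower without overlap. The median of the 9 was 0.979, against −0.006 for all genes. The other 7 genes, with the same limit, added 5 calls, for 9 of 16. The 24 h and 48 h comparisons share the sham libraries and are therefore not independent.

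H1 linker histones bind the DNA between nucleosomes. Hist1h1c, the most abundant replication-dependent linker histone here (chr13:23738808-23740367), had 56.4, 51.0, 49.9, 55.8 and 32.0 FPKM in sham, 47.6 to 68.4 FPKM in PHx24 (median 63.7) and 58.5 to 92.8 FPKM in PHx48 (median 77.8). The lowest PHx48 library lay just above the highest sham library. Its log2 fold change was 0.67 ± 0.26 (SE) between PHx48 and sham (edgeR adjusted p = 0.0414) and 0.30 ± 0.25 between PHx24 and sham (adjusted p = 0.391). The 48 h call stood close to the threshold, was lost under 15 of the alternatives (without sham 5, for example, 0.53 with adjusted p = 0.128) and had an adjusted p of 0.0511 with limma.

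Among H2B genes, which code for a core histone that pairs with H2A, Hist1h2bc (chr13:23684199-23692908, 2 exons) had its low point at 24 h. It had 121, 120, 119, 163 and 141 FPKM in sham, 72.8 to 86.6 FPKM in PHx24 (median 82.5) and 103 to 147 FPKM in PHx48 (median 135). Every PHx24 library lay below every sham and every PHx48 library. It fell by 0.72 ± 0.18 (SE) on the log2 scale between PHx24 and sham (edgeR adjusted p = 0.00348) and was 0.69 ± 0.17 higher in PHx48 than in PHx24 (adjusted p = 0.00854). Between PHx48 and sham the log2 difference was −0.03 ± 0.18 (adjusted p = 0.911).

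Hist2h2be and Hist1h2bg, both H2B genes, were near their sham level at 24 h and above it at 48 h. Hist2h2be (chr3:96221119-96223738) had 1.85, 1.87, 1.97, 1.56 and 1.72 FPKM in sham, 0.88 to 2.64 FPKM in PHx24 (median 2.03) and 2.81 to 4.46 FPKM in PHx48 (median 4.21). All PHx48 libraries exceeded all others of these 3 groups, with a log2 fold change of 1.12 ± 0.22 between PHx48 and sham (edgeR adjusted p = 0.000243) and 0.98 ± 0.19 between PHx48 and PHx24 (adjusted p = 0.00127). Hist1h2bg had 0.76, 1.45, 0.44, 1.37 and 1.23 FPKM in sham, 0.46 to 1.73 FPKM in PHx24 (median 0.93) and 1.92 to 3.94 FPKM in PHx48 (median 2.44). It was 1.38 ± 0.32 higher in PHx48 than in sham on the log2 scale (edgeR adjusted p = 0.00144) and 1.58 ± 0.29 higher than in PHx24 (adjusted p = 0.000549), again with no overlap.

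H2A and H2B genes of the clusters often lie head to head, and 12 such pairs were 175 to 305 bases apart. Only the pair Hist1h2ae and Hist1h2bg had both genes tested. Hist1h2ae, the single H2A gene of the 16, had mean levels of 0.539 FPKM in sham, 0.464 FPKM in PHx24 and 0.670 FPKM in PHx48, with no call in any comparison. Hist1h2ac lies 250 bases from Hist1h2bc on the other strand and had a mean of 10.3 counts per library, against 2196 for Hist1h2bc.

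H3 genes of the clusters included the largest log2 fold changes of the class, from levels near 0. Hist1h3g, Hist1h3c, Hist1h3d and Hist1h3i passed the filter only through the 48 h libraries, so their 48 h values and p-values describe genes selected for a high level there. Hist1h3g (chr13:23535422-23535951) had 0.11, 0.13, 0, 0 and 0 FPKM in sham, 0 to 0.56 FPKM in PHx24 (median 0.11) and 1.40 to 3.65 FPKM in PHx48 (median 2.11). All 7 PHx48 libraries exceeded all sham and PHx24 libraries. The gene had 163 counts over the PHx48 libraries and 2 over the sham libraries, a ratio per total count of 54.54 (exact binomial 95% interval 14.86 to 454.17, counting error only), and edgeR's log2 fold change was 5.21 ± 0.69 (SE; adjusted p = 2.17e-06). Against PHx24 it was 3.92 ± 0.51 higher in PHx48 (adjusted p = 1.02e-05; 4.75 without PHx24 7).

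Hist1h3c and Hist1h3d, H3 genes farther along the same cluster, also had a higher mean in PHx48 than in sham and PHx24. Hist1h3c had 0.47, 0, 0, 0 and 0.12 FPKM in sham, 0.18 to 0.81 FPKM in PHx24 (median 0.31) and 0.78 to 2.53 FPKM in PHx48 (median 1.88). PHx48 exceeded sham in every library and overlapped PHx24 at its low end. Its log2 fold change was 3.67 ± 0.59 between PHx48 and sham (edgeR adjusted p = 2.78e-05) and 1.49 ± 0.68 between PHx24 and sham (adjusted p = 0.0882). Without sham 1, which held 0.47 FPKM of the gene and the muscle transcripts, the 24 h value was 3.29 with adjusted p = 0.00343 and the 48 h value 5.46 with adjusted p = 2.76e-06.

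Hist1h3d had 0.14, 0.06, 0.22, 0.31 and 0.12 FPKM in sham, 0.05 to 0.44 FPKM in PHx24 (median 0.14) and 0.56 to 1.42 FPKM in PHx48 (median 0.87). The PHx48 libraries were above all of these, with a log2 fold change of 2.41 ± 0.45 against sham (edgeR adjusted p = 0.000145) and 2.34 ± 0.39 against PHx24 (adjusted p = 0.000193). Hist2h3c2, an H3 gene on chromosome 3, had 1.45, 0.74, 0.54, 1.36 and 1.57 FPKM in sham, 0.81 to 2.07 FPKM in PHx24 (median 1.05) and 1.31 to 4.36 FPKM in PHx48 (median 2.41), with overlapping groups and no call at 48 h against sham (1.26 ± 0.53, adjusted p = 0.0656). DESeq2, limma on log2(FPKM + 1), library-total scaling and a fit on these groups alone did call it. Hist1h3i was 1.46 ± 0.51 higher in PHx48 than in sham (edgeR adjusted p = 0.0251).

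H4 genes did not move as a block. Hist1h4i (chr13:22040636-22041362) had 3.41, 3.23, 4.25, 2.44 and 2.31 FPKM in sham, 2.03 to 5.03 FPKM in PHx24 (median 3.50) and 6.09 to 13.1 FPKM in PHx48 (median 7.60). The PHx48 libraries lay above all sham and PHx24 libraries, by 1.46 ± 0.29 on the log2 scale against sham (edgeR adjusted p = 0.000285) and 1.29 ± 0.26 against PHx24 (adjusted p = 0.00125).

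Hist1h4i was near its sham level at 24 h, with a log2 fold change of 0.17 ± 0.29 (edgeR adjusted p = 0.687). Hist1h4h, at a level close to that of Hist1h4i in FPKM, was lower than in sham at that time. It had 12.9, 5.72, 7.02, 7.06 and 6.0 FPKM in sham, 1.21 to 5.29 FPKM in PHx24 (median 3.16) and 3.68 to 7.69 FPKM in PHx48 (median 4.75). The PHx24 libraries lay below every sham library, and PHx48 overlapped both. It fell by 1.21 ± 0.41 on the log2 scale between PHx24 and sham (edgeR adjusted p = 0.0236). Leaving out sham 1 ended that call (−0.94, adjusted p = 0.0951), as did leaving out the 4 libraries with muscle, pancreas or fat transcripts (−1.06, adjusted p = 0.115). Between PHx48 and sham it was −0.52 ± 0.40 (adjusted p = 0.335).

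Hist1h4k had 0, 1.11, 0.44, 0.49 and 0 FPKM in sham, 0.37 to 3.62 FPKM in PHx24 (median 1.45) and 1.42 to 4.29 FPKM in PHx48 (median 3.2). PHx48 lay above sham in every library and PHx24 overlapped sham. It was 2.12 ± 0.73 higher in PHx24 than in sham (edgeR adjusted p = 0.0258) and 2.86 ± 0.70 higher in PHx48 than in sham (adjusted p = 0.00229), and the 24 h call was lost without sham 1 (adjusted p = 0.0717), sham 5 (0.0652), PHx24 6 (0.0522) or PHx24 7 (0.0576). Without sham 2 the values were 2.90 and 3.65.

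Hist1h4m, another gene that passed only through the 48 h libraries, had 0, 0.86, 0.85, 0 and 0 FPKM in sham, 0 to 0.59 FPKM in PHx24 (median 0.16) and 0.61 to 3.39 FPKM in PHx48 (median 1.28). PHx48 lay above PHx24 in every library and overlapped sham. It was 2.29 ± 0.72 higher in PHx48 than in sham (edgeR adjusted p = 0.0146; 2.94 without sham 2 and 2.91 without sham 3) and 2.80 ± 0.66 higher than in PHx24 (adjusted p = 0.00595). Of the other H4 genes tested, Hist1h4c, under the same limit, was 1.72 ± 0.44 higher in PHx48 than in PHx24 (edgeR adjusted p = 0.0102) and Hist1h4n was not called, at mean levels of 1.08 FPKM in sham, 0.761 FPKM in PHx24 and 2.06 FPKM in PHx48.

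**Figure D3:**
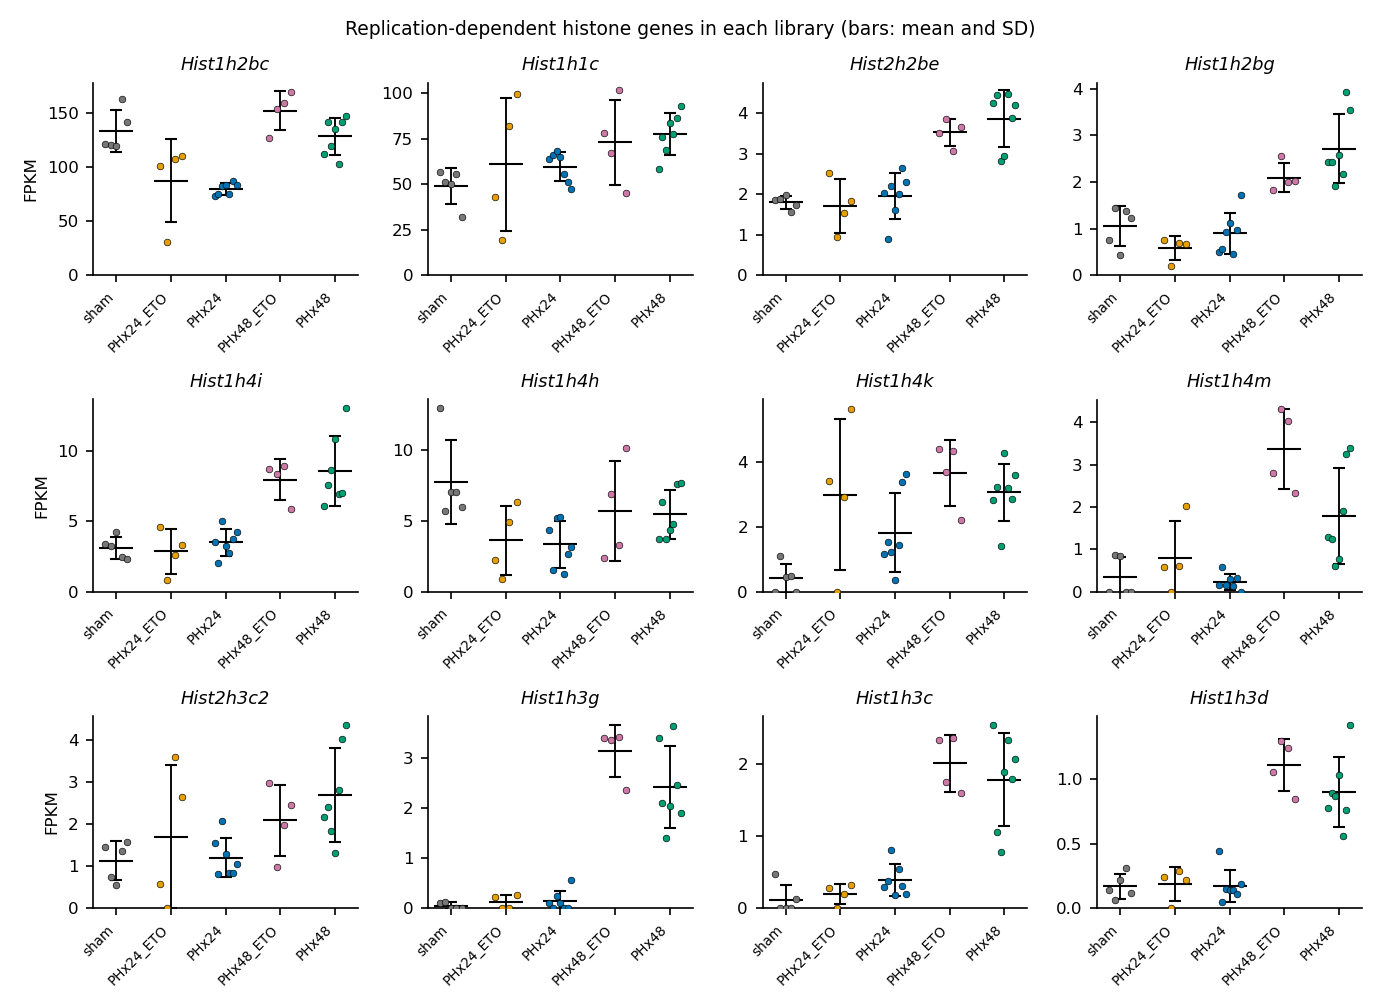
FPKM of 12 replication-dependent genes in each library (points; bars are mean and SD, cut off at 0), with a linear axis from 0 in every panel. The 3 Hist1h3 genes lie at 0.81 FPKM or less in all sham, PHx24_ETO and PHx24 libraries and at 0.56 FPKM or more in all 48 h libraries, while Hist1h2bc is lowest at 24 h.

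Genes below the filter were examined with no filter, where 60 replication-dependent genes with any count were tested among 30492 genes. In that fit 16 of the 60 were higher in PHx48 than in sham and 15 higher in PHx48 than in PHx24. Of all genes in that fit, 7.7% and 1.83% were called higher. Of the 16 and the 15, 8 and 6 were genes below the filter. None of the 60 were lower in either comparison. The shares of all genes called lower there are not given, so nothing is read from the absence of falls. Hist1h1d and Hist1h2bh, named after their values were seen, show the depth behind them. Hist1h1d, a linker histone gene annotated with a 7425-base transcript, summed to 38 counts in the 5 sham, 129 in the 7 PHx24 and 609 in the 7 PHx48 libraries, with a log2 fold change of 3.17 ± 0.52 between PHx48 and sham (edgeR adjusted p = 4.8e-05). Hist1h2bh summed to 20, 18 and 182 counts in the same groups, with 2.41 ± 0.56 (adjusted p = 0.0030). Hist1h2br, the single gene below the filter called at 24 h, was lower in PHx24 with 0 counts, against 4 counts in sham, where 6.6% of all genes in that fit were called lower.

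Variant genes moved in both directions at 24 h. Against sham, 3 of the 8 tested were higher (H2afx, H2afz and H3f3b) and 3 lower (H3f3a, H1f0 and H2afv), where 19.1% and 15.8% of all genes were. At 48 h against sham 4 were higher (H2afx, H2afz, H3f3b and H2afy) and none lower by edgeR, DESeq2 or limma, with 1 (H3f3a) lower at an unadjusted p under 0.05, where 19.5% of all genes were called higher and 17% lower. Between PHx48 and PHx24, 4 were higher (H2afz, H2afv, H3f3b and H2afx) and none lower by any of these tools or at an unadjusted p under 0.05, where 6.19% of all genes were called higher and 5.41% lower. The median log2 fold changes were −0.073, 0.280 and 0.308 in the 3 comparisons. Scaling by library totals in place of TMM factors moved the median of all genes by 0.11 at 24 h and 0.23 at 48 h against sham, and under it none of the 3 falls at 24 h was called. That scaling also moved the split of all calls to 2973 higher and 1255 lower at 24 h and to 4278 higher and 986 lower at 48 h, against 2366 and 1960, and 2410 and 2103, with TMM factors.

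H2afz and H2afv code for the forms of H2A.Z, which sits at the nucleosomes beside promoters. H2afz (chr3:137864487-137866922) had 31.9, 35.6, 32.6, 46.8 and 42.8 FPKM in sham, 38.9 to 98.1 FPKM in PHx24 (median 67.2) and 125 to 168 FPKM in PHx48 (median 147). PHx48 stood above every other library of the 3 groups, and all but 1 PHx24 library exceeded the highest sham library. Its log2 fold change was 0.86 ± 0.22 between PHx24 and sham (edgeR adjusted p = 0.00318), 1.96 ± 0.23 between PHx48 and sham (adjusted p = 3.33e-07) and 1.10 ± 0.20 between PHx48 and PHx24 (adjusted p = 0.000412).

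H2afv had 19.1, 24.2, 21.8, 20.8 and 20.9 FPKM in sham, 11.5 to 18.5 FPKM in PHx24 (median 15.4) and 19.8 to 33.7 FPKM in PHx48 (median 24.8). The PHx24 libraries lay below all others of these groups. It fell by 0.45 ± 0.17 on the log2 scale between PHx24 and sham (edgeR adjusted p = 0.0414), a call lost without any of 7 single libraries (adjusted p = 0.0502 to 0.104), and was 0.75 ± 0.16 higher in PHx48 than in PHx24 (adjusted p = 0.00207).

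H2afx codes for H2A.X, the form of H2A that is phosphorylated around DNA breaks, and its transcripts are known to end either at the stem-loop or in a poly(A) tail. It had 8.03, 8.82, 11.9, 14.2 and 14.9 FPKM in sham, 20.0 to 47.6 FPKM in PHx24 (median 36.2) and 37.5 to 60.7 FPKM in PHx48 (median 51.1). Both resected groups lay above sham in every library and overlapped each other. The log2 fold change was 1.69 ± 0.18 between PHx24 and sham (edgeR adjusted p = 1.92e-07), 2.17 ± 0.18 between PHx48 and sham (adjusted p = 3.11e-09) and 0.48 ± 0.15 between PHx48 and PHx24 (adjusted p = 0.0397, and above the threshold without any of 8 single libraries, at 0.0575 to 0.0798).

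The replacement H3 genes H3f3a and H3f3b, which code for the same protein, diverged. H3f3b (chr11:116021912-116027962) had 54.6, 61.1, 64.2, 61.6 and 66.9 FPKM in sham, 80.3 to 95.8 FPKM in PHx24 (median 85.3) and 93.4 to 131 FPKM in PHx48 (median 117). Sham lay below both resected groups in every library. It was 0.50 ± 0.13 higher in PHx24 (edgeR adjusted p = 0.00339) and 0.90 ± 0.13 higher in PHx48 (adjusted p = 6.03e-06) than in sham.

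H3f3a had 20.7, 19.7, 20.3, 29.2 and 28.3 FPKM in sham, 15.02 to 22.3 FPKM in PHx24 (median 17.5) and 18.9 to 21.2 FPKM in PHx48 (median 20.1), with overlapping groups. It fell by 0.37 ± 0.10 on the log2 scale between PHx24 and sham (edgeR adjusted p = 0.00806), but under library-total scaling the value was −0.25 with adjusted p = 0.0657. H1f0, the linker histone of resting and differentiated cells, had 67.4, 81.8, 84.4, 87.4 and 86.6 FPKM in sham, 57.9 to 70.3 FPKM in PHx24 (median 62.8) and 66.98 to 83.3 FPKM in PHx48 (median 72.6). All PHx24 libraries but 2 lay below the lowest sham library, and the fall at 24 h was 0.33 ± 0.10 on the log2 scale (edgeR adjusted p = 0.0101; −0.22 and 0.0757 under library-total scaling).

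H2afy codes for macroH2A, an H2A with a large added domain. It had 9.48, 11.7, 11.4, 12.6 and 13.8 FPKM in sham, 10.6 to 14.0 FPKM in PHx24 (median 12) and 12.2 to 14.8 FPKM in PHx48 (median 14.3), with overlapping groups. It was 0.26 ± 0.09 higher in PHx48 than in sham (edgeR adjusted p = 0.0223). Leaving out any of 3 libraries ended the call, sham 1 (0.118), sham 3 (0.0706) or PHx48 4 (0.0605). H2afj had 32.2, 37.1, 35.8, 34.8 and 45.3 FPKM in sham, 26.1 to 35.3 FPKM in PHx24 (median 32.3) and 25.4 to 37.1 FPKM in PHx48 (median 35.4), and was called in no comparison.

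**Figure D4:**
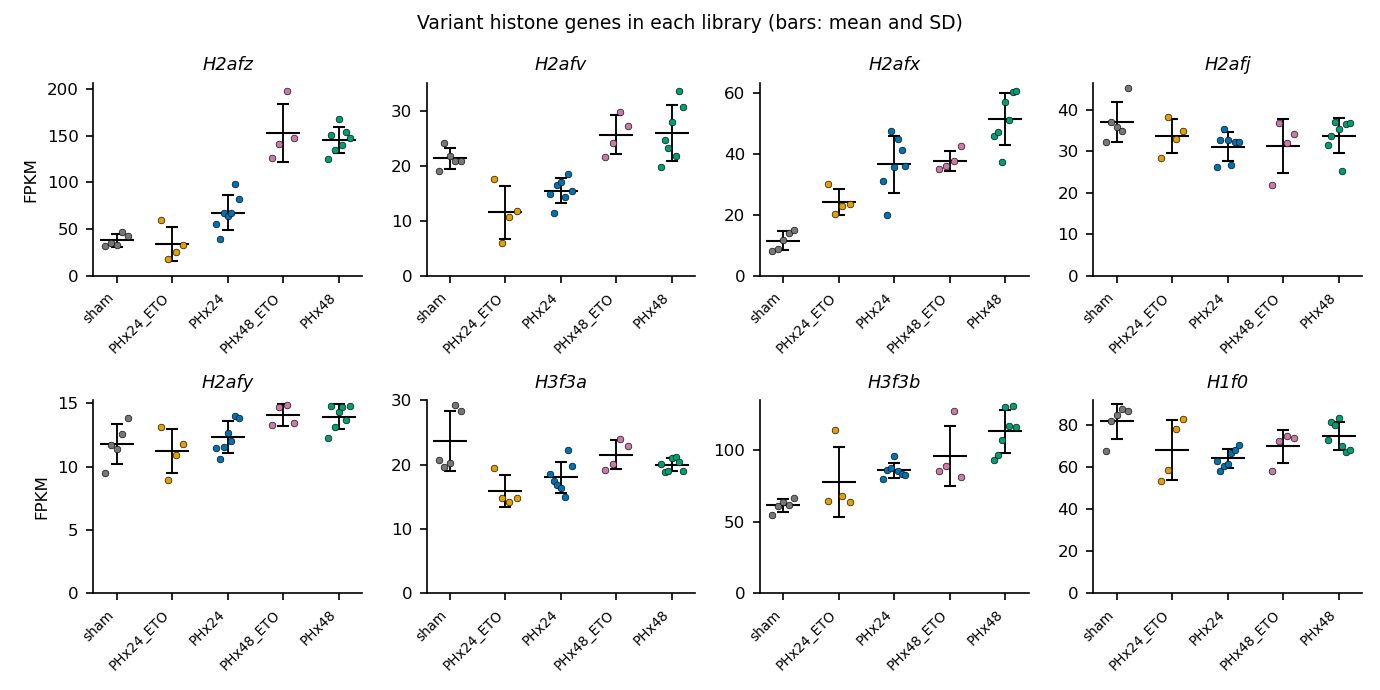
FPKM of the 8 variant histone genes tested in each library (points; bars are mean and SD), with a linear axis from 0 in every panel. H2afz reaches 125 FPKM or more in every 48 h library and H2afx is above sham in every resected library, while H2afj was called in no comparison.

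Genes that act on histones or mark S phase were called at 24 h already. Of the 8 genes listed for S phase (Mcm2, Mcm5, Pcna, Rrm2, Ccne1, Ccna2, Mki67 and Top2a), all 8 were higher in PHx24 than in sham. All 8 were also higher in PHx48 than in sham. The median log2 fold changes were 3.802 and 3.860, where 19.1% and 19.5% of all genes were called higher. Ccne1, a cyclin of S phase entry, was 3.91 ± 0.34 higher in PHx24 (edgeR adjusted p = 1.03e-08) and Mcm2, a subunit of the replicative helicase, 3.42 ± 0.37 (adjusted p = 2.79e-07). Between PHx48 and PHx24, 1 of the 8 was higher (Ccna2, 1.81 ± 0.40, edgeR adjusted p = 0.00346) and 1 lower (Ccne1, −0.95 ± 0.25, adjusted p = 0.0148), with a median of −0.238. Of all genes, 6.19% were called higher and 5.41% lower. The means went both ways, higher in PHx48 for Ccna2, Mki67, Top2a and Rrm2 and lower for Ccne1, Mcm2, Mcm5 and Pcna.

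Of 24 histone chaperone genes tested, 16 rose and 2 fell at 24 h against sham, and 12 were higher and 2 lower in PHx48 than in sham. Of all genes, 19.1% were called higher and 15.8% lower at 24 h, and 19.5% and 17% at 48 h. The medians were 0.516 and 0.392, and 1 gene was higher and 2 lower in PHx48 than in PHx24. Chaf1a, the large subunit of the factor that loads H3 and H4 at replication forks, averaged 0.157 ± 0.057 FPKM in sham (SD, n = 5), 1.98 ± 0.77 FPKM in PHx24 (SD, n = 7) and 1.71 ± 0.43 FPKM in PHx48 (SD, n = 7), with log2 fold changes of 3.64 ± 0.41 and 3.43 ± 0.41 against sham (edgeR adjusted p = 3.87e-07 and 4.38e-07). Asf1b, which hands H3 and H4 to that factor, was 3.93 ± 0.52 and 3.95 ± 0.52 higher (edgeR adjusted p = 3.42e-06 and 2.01e-06). Anp32e, which removes H2A.Z from chromatin, was 0.53 ± 0.13 higher in PHx24 and 0.88 ± 0.13 higher in PHx48 (edgeR adjusted p = 0.00176 and 6.1e-06). Ssrp1, a subunit of the FACT complex, and Mms22l, which works at stalled replication forks, completed the 4 genes with the smallest adjusted p at 24 h (0.71 ± 0.10 and 2.78 ± 0.38, edgeR adjusted p = 4.25e-06 and 5.25e-06), and Hjurp, the chaperone of Cenpa, those at 48 h (0.91 ± 0.13, adjusted p = 5.71e-06). The lower genes at both times were Rbbp4, a histone-binding subunit of several chromatin complexes, and Vps72, a subunit of the complexes that deposit H2A.Z (−0.35 ± 0.12 and −0.33 ± 0.09 at 24 h, edgeR adjusted p = 0.0289 and 0.00557). Hira, Daxx and Atrx, which place the replacement H3, were called at neither time.

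Of 17 genes tested that make, bind or degrade histone mRNA, 7 rose and none fell at 24 h against sham, and 10 were higher and 1 lower (Tut7) in PHx48 than in sham, beside the same shares of all genes. Slbp, the stem-loop binding protein, averaged 1.95 ± 0.12 FPKM in sham (SD, n = 5), 5.16 ± 1.16 FPKM in PHx24 (SD, n = 7) and 3.86 ± 0.76 FPKM in PHx48 (SD, n = 7). It was 1.42 ± 0.21 higher in PHx24 (edgeR adjusted p = 9.05e-06) and 1.0 ± 0.20 higher in PHx48 (adjusted p = 0.000385) than in sham. Cstf2, a subunit shared by the histone and the poly(A) end-processing machinery, was 0.89 ± 0.13 higher in PHx24 and 0.78 ± 0.13 in PHx48 (edgeR adjusted p = 8.45e-06 and 3.42e-05), and Npat, the coactivator of the histone clusters, was called at neither time.

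Cenpa, the centromeric H3, and H1fx, a linker histone variant, carry symbols outside the member rule. Cenpa averaged 1.59 ± 0.24 FPKM in sham (SD, n = 5), 3.31 ± 0.92 FPKM in PHx24 (SD, n = 7) and 14.6 ± 3.8 FPKM in PHx48 (SD, n = 7), and H1fx 0.402 ± 0.164, 0.593 ± 0.283 and 4.06 ± 1.54 FPKM. Both were higher in PHx48 than in PHx24, by 2.14 ± 0.22 and 2.76 ± 0.36 on the log2 scale (edgeR adjusted p = 4.55e-07 and 1.4e-05), but H1fx passed the filter only through the 48 h libraries. Cenpa was also called at 24 h (1.07 ± 0.25, edgeR adjusted p = 0.00133).

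Markers of other liver cells moved with time as well. Sinusoidal endothelial markers (6 of 6 genes found, none at 0) summed to 28.24 to 37.84 FPKM in sham, 21.60 to 26.17 FPKM in PHx24 and 14.50 to 25.57 FPKM in PHx48. Neutrophil markers summed to 1.07 to 5.32 FPKM in sham (median 1.74), 4.01 to 80.35 FPKM in PHx24 (median 7.77) and 2.04 to 6.53 FPKM in PHx48 (median 2.45). Monocyte markers (5 of 5) summed to 35.58 to 56.61, 26.54 to 83.38 and 12.90 to 45.60 FPKM, with medians of 52.60, 35.88 and 27.01. The highest PHx24 value of both lists came from PHx24 2. The part of these markers in the histone results was not tested. Without sham 1, sham 2, PHx24 1 and PHx48 3, 8 replication-dependent genes were higher in PHx48 than in sham (10 with them) and 9 higher than in PHx24 (9 with them), and at 24 h 2 were higher and 1 lower than in sham (1 and 2 with them). Of all 12376 genes, 3505, 1147 and 3435 were called in either direction in the same order (4513, 1435 and 4326 with them). The 10 and the 9 with all libraries include genes that passed the filter only through the 48 h libraries, so nothing is read from their number.

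Etomoxir was set against no etomoxir at each time. At 24 h, 1 histone gene was called, H2afz, lower in PHx24_ETO than in PHx24, where edgeR called 2.9% of all genes, 1.58% higher and 1.33% lower. No histone gene tested had groups without overlap, where 1.83% of all genes were higher and 1.41% lower without overlap. None of the 16 replication-dependent genes was called in either direction by edgeR, DESeq2 or limma, with none higher and 2 lower (Hist1h3i and Hist1h4n) at an unadjusted p under 0.05. The median log2 fold change was −0.101 over replication-dependent and −0.184 over variant genes, against 0.006 over all genes tested. Without PHx24_ETO replicate 2 no histone gene was called, and the medians were 0.252 and −0.197, so the sign of the replication-dependent median turned.

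Markers of other cells also differed between these groups. Kupffer cell markers (7 of 7 genes found, none at 0) summed to 37.95 to 81.04 FPKM in PHx24_ETO and 81.68 to 152.25 FPKM in PHx24, and erythroid markers (6 of 6) to 90.19 to 174.90 FPKM in PHx24_ETO and 200.36 to 452.04 FPKM in PHx24. Neither pair of ranges overlapped, and their part in the histone values was not tested.

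H2afz had 59.7, 17.7, 25.7 and 32.7 FPKM in PHx24_ETO, against 38.9 to 98.1 FPKM in PHx24 (median 67.2). The other 3 PHx24_ETO libraries lay below all PHx24 libraries, and replicate 1 lay within their range. The log2 fold change was −1.01 ± 0.24 (SE; edgeR adjusted p = 0.0209). Without replicate 2, the library that stood apart, it was −0.79 (adjusted p = 0.0808), and it also missed the threshold without replicate 3 (0.0793) or replicate 4 (0.0536) and in a fit of these groups alone (0.149), in which no gene of the whole table was called. Over all single libraries left out, the log2 fold change of H2afz ranged from −1.44 to −0.79. In this comparison 359 genes were called with all libraries, 138 without replicate 2 and 1199 without replicate 1.

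H2afx had 30.2, 20.2, 22.9 and 23.7 FPKM in PHx24_ETO, against 20.0 to 47.6 FPKM in PHx24 (median 36.2), with overlapping groups. It was −0.61 ± 0.18 (edgeR adjusted p = 0.0649), and was called lower by DESeq2 (adjusted p = 0.0291) and without PHx24 2 (0.0123). H2afv had 17.7, 6.05, 10.7 and 11.7 FPKM in PHx24_ETO, against 11.5 to 18.5 FPKM in PHx24 (−0.43 ± 0.19, edgeR adjusted p = 0.193). Without replicate 2, H2afx was at −0.53 (adjusted p = 0.207) and H2afv at −0.22 (adjusted p = 0.576). Without replicate 1, both were called lower, H2afx at −0.745 (edgeR adjusted p = 0.0189) and H2afv at −0.728 (adjusted p = 0.00934). Both values thus depend on single libraries.

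H3f3b had 64.5, 115, 68.2 and 63.7 FPKM in PHx24_ETO, against 80.3 to 95.8 FPKM in PHx24. Replicate 2 alone lay above the PHx24 libraries and the other 3 lay below them, and the log2 difference was −0.16 ± 0.14 (edgeR adjusted p = 0.53), or −0.41 without replicate 2 (adjusted p = 0.067). Hist1h2bc had 101, 30.1, 107 and 110 FPKM in PHx24_ETO, against 72.8 to 86.6 FPKM in PHx24, where the same library stood alone below PHx24 and the others stood above it (0.11 ± 0.20, edgeR adjusted p = 0.793, or 0.40 and 0.0602 without it). Hist1h1c had 42.8, 19.1, 82.0 and 99.9 FPKM in PHx24_ETO, against 47.6 to 68.4 FPKM in PHx24. Its PHx24_ETO libraries lay on both sides of the PHx24 range (0.01 ± 0.27, edgeR adjusted p = 0.99, or 0.30 and 0.559 without replicate 2).

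Summed over the class, replication-dependent genes gave 203.23 ± 92.09 CPM in PHx24_ETO (SD, n = 4) and 204.43 ± 15.33 in PHx24 (SD, n = 7). Without PHx24_ETO replicate 2 the first value was 246.58 ± 38.02 (SD, n = 3). The variant class gave 660.55 ± 83.29 in PHx24_ETO, 630.03 ± 69.40 without replicate 2, and 786.53 ± 50.67 in PHx24. Among the genes around the histones, H1fx was lower in PHx24_ETO (−2.19 ± 0.58, edgeR adjusted p = 0.0371), no chaperone, histone mRNA or S phase gene was called, and the medians were −0.132, −0.009 and −1.026. Without replicate 2, H1fx was at −1.94 (edgeR adjusted p = 0.129), the chaperone gene Rbbp7 was called lower (−0.43 ± 0.11, adjusted p = 0.0428), and the medians were −0.047, −0.024 and −0.726.

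At 48 h no histone gene was called between PHx48_ETO and PHx48 by edgeR, DESeq2 or limma, where edgeR called 0.21% of all genes, 0.129% higher and 0.0808% lower. No histone gene tested had groups without overlap, where 1.26% of all genes were higher and 0.962% lower without overlap. At an unadjusted p under 0.05, 1 replication-dependent gene (Hist1h4n) and 1 variant gene (H2afx) were lower and none higher. H2afz had 126, 142, 197 and 148 FPKM in PHx48_ETO, against 125 to 168 FPKM in PHx48 (median 147). The groups overlapped, and the log2 difference was 0.07 ± 0.23 (SE). H2afx had 34.96, 36.1, 37.6 and 42.5 FPKM in PHx48_ETO, against 37.5 to 60.7 FPKM in PHx48 (median 51.1), overlapping in part (−0.45 ± 0.18, edgeR adjusted p = 0.533).

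Hist1h3g had 3.41, 3.37, 3.42 and 2.36 FPKM in PHx48_ETO, against 1.40 to 3.65 FPKM in PHx48 (median 2.11). These ranges overlapped (0.37 ± 0.42). Hist1h4i had 8.74, 8.37, 8.90 and 5.84 FPKM in PHx48_ETO, against 6.09 to 13.1 FPKM in PHx48 (−0.11 ± 0.29), and Hist1h2bc had 126, 153, 159 and 169 FPKM in PHx48_ETO, against 103 to 147 FPKM in PHx48 (0.24 ± 0.20). The class sums were 358.27 ± 39.34 CPM in PHx48_ETO (SD, n = 4) and 344.95 ± 33.24 in PHx48 (SD, n = 7) for replication-dependent genes, and 1079.01 ± 124.45 and 1181.59 ± 111.16 for variants. With 4 libraries in a group, these values do not show that the groups were alike.

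**Figure D5:**
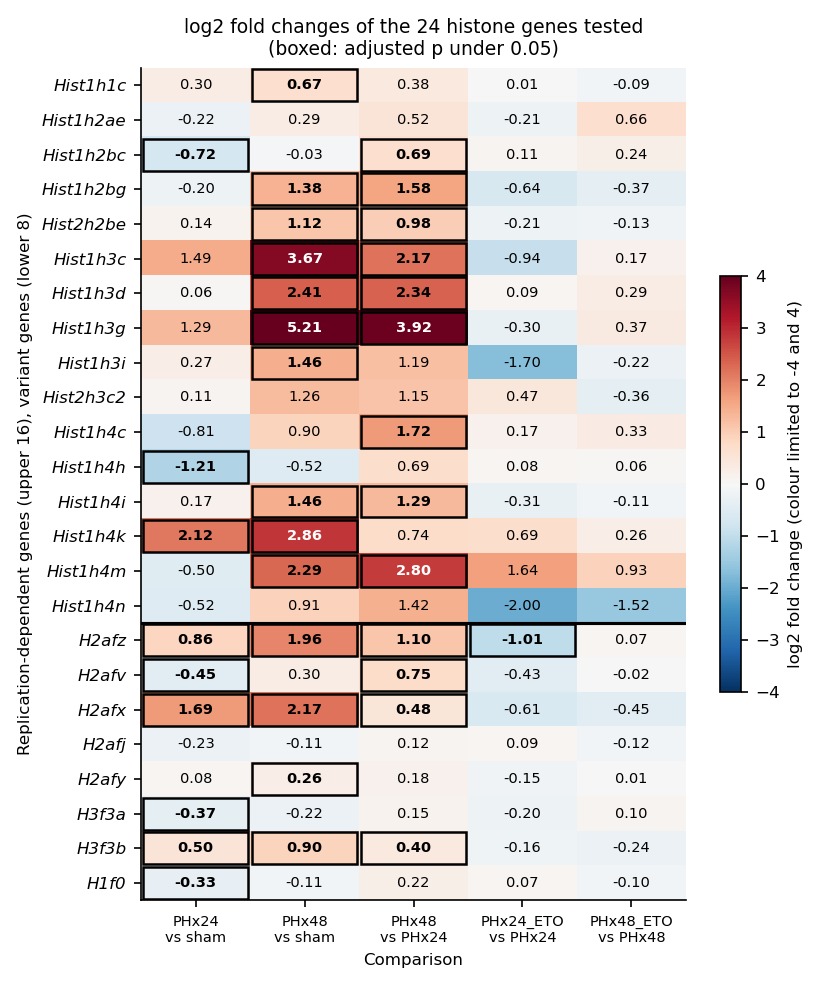
log2 fold changes (numbers and colour) of the 24 histone genes tested in 5 comparisons, replication-dependent genes above the line and variant genes below it; boxes mark edgeR adjusted p under 0.05. In the PHx48 columns, 5 boxes against sham and 5 against PHx24 belong to replication-dependent genes that passed the filter only through the 48 h libraries. Nothing is read from the number of boxes there. The variant genes have boxes in both directions at 24 h, and H2afz alone is boxed in an etomoxir column.

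Whether etomoxir acted differently at 48 h than at 24 h was tested as an interaction, in which no histone gene was called by edgeR, DESeq2 or limma, where edgeR called 0.0162% of all genes. At an unadjusted p under 0.05 no replication-dependent gene and 1 variant gene was found, H2afz, with a difference of 1.07 ± 0.32 on the log2 scale (48 h effect minus 24 h effect, edgeR adjusted p = 0.279). Without PHx24_ETO replicate 1 it was 1.51 with adjusted p = 0.00346, and without replicate 2 it was 0.86 with adjusted p = 0.427.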

How the data were processed

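Liver RNA of 27 mouse samples was measured, with groups and replicate numbers taken from the sample titles. Per the labels' protocols, the NEBNext Ultra kit was used on poly(A) RNA. Tools named in the submitters' processing notes are fastp, HISAT2 (2.0.5), featureCounts (1.5.0-p3), CASAVA (1.8) and DESeq2 (1.20.0), and the builds are GRCm38 and mm10; how strand and reads with several matches were handled is not stated there. The authors deposited a raw count and an FPKM value for each gene and library. In the table, each deposited FPKM was its count over gene length and over a library size that follows a median-of-ratios size factor. Near-identical histone genes may share or lose reads.

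Counts were fitted with edgeR 4.0.16 (quasi-likelihood F test, TMM factors, 1 fit of 27 libraries and 5 groups, Benjamini-Hochberg adjustment over 12376 genes with at least 1 FPKM in at least 4 libraries, call at adjusted p under 0.05). The biological coefficient of variation was 0.266. Standard errors are the log2 fold change divided by the root of F. The script was tested on simulated counts. Alternatives were DESeq2 1.42.0, library totals, no filter (30492 genes), filterByExpr (15473 genes), limma 3.58.1 on log2(FPKM + 1) or log2(FPKM + 0.1), the replicate number as a block, only the groups compared, each library left out in turn, and 4 libraries with muscle, pancreas or fat transcripts left out together.

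Values per library are given for the variant genes that passed the filter, the 10 replication-dependent genes with the highest mean FPKM, and up to 5 genes per class, direction and comparison with the smallest adjusted p; of each list of other genes up to 4 are named by the same rule, with a few more named as background. The members, lists and tests were chosen with earlier results of these data known. All 79 members had the same coordinates in GENCODE M21, from which stem-loops and shared stretches of 75 bases were read. All intervals cover counting error only.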

Additional observations from a re-analysis of the deposited data

Results flagged for a closer look

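Single libraries were compared with the rest of their group for the 20 histone genes given by library and the sums of both classes, over 110 groups of 4 to 7 values. In 12 of them the gap between the lowest or highest library and its neighbour was larger than Dixon's 95% critical value, where chance gives about 1 in 20 groups. Both FPKM of PHx24_ETO replicate 2 among them belong to the library that stood apart as a whole: H3f3b at 114.55 (63.666 to 68.197 in the other 3) and Hist1h2bc at 30.139 (101.107 to 109.756 in the other 3).

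In sham 1, the library with the most muscle transcripts, H1f0 had 67.395 FPKM (81.797 to 87.414 in the rest), Hist1h3c 0.469 FPKM (0 to 0.121) and Hist1h4h 12.949 FPKM (5.724 to 7.057). In sham 5, Hist1h1c had 32.017 FPKM (49.901 to 56.434). In PHx24_ETO 1, H3f3a had 19.509 FPKM (14.14 to 14.851). In PHx24 1, another library with muscle transcripts, Hist1h3d had 0.436 FPKM (0.047 to 0.19), and in PHx24 7 Hist1h3g had 0.56 FPKM (0 to 0.242).

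At 48 h with etomoxir, H1f0 had 57.867 FPKM in replicate 1 (72.299 to 74.709), H3f3b 127.407 FPKM in replicate 3 (81.668 to 89.324) and Hist1h3g 2.356 FPKM in replicate 4 (3.366 to 3.417).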

How the results depend on the processing

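Under 38 alternative settings, 27 of them leaving out 1 library, 3474 values were recomputed and none of the called ones changed sign. Of those for single genes, 2636 kept their side of the threshold, 62 lost a call and 22 gained one; of the counts and sums, 697 stayed within their limit and 57 moved. For PHx24 against sham, replication-dependent genes higher numbered 2 with limma on log2(FPKM + 0.1), 2 without the 4 libraries and 0 with the replicate block; lower numbered 1 without the 4 libraries; variant genes lower numbered 0 with library totals. For PHx48 against sham, 16 replication-dependent genes were higher with no filter and 1 variant gene (H3f3a) lower without the 4 libraries. For PHx48 against PHx24, 15 replication-dependent and 2 variant genes were higher with no filter. For PHx24_ETO against PHx24, variant genes lower numbered 2 with library totals, DESeq2 or without the 4 libraries and 0 with the replicate block or only the groups compared; replication-dependent genes lower numbered 1 with the block; all genes called numbered 764 with DESeq2, 196 with no filter and 0 with only the groups compared (359 otherwise). For PHx48_ETO against PHx48, all genes called numbered 68 with DESeq2, 11 with no filter and 44 with the block (26 otherwise), and for the difference of the etomoxir effects 42 with DESeq2 (2 otherwise). As TPM made from FPKM, the replication-dependent sums were 410.46 in sham, 377.51 in PHx24_ETO, 370.84 in PHx24, 687.13 in PHx48_ETO and 661.23 in PHx48, and the variant sum in sham was 567.23. The cause of these moves was not tested. The block is no pairing by design: same-numbered libraries correlated at −0.241 to 0.662, with 10 of 25 pairs over 0.1.

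Leaving out 1 library at a time, the counts ranged as follows. Against sham at 24 h, replication-dependent genes higher ranged from 0 to 1 and lower from 1 to 2; at 48 h variant genes lower ranged from 0 to 1. Between PHx48 and PHx24 variant genes higher ranged from 2 to 4. Between PHx24_ETO and PHx24, variant genes lower ranged from 0 to 3 (3 without PHx24_ETO 1, 2 without PHx24 2, 0 without PHx24_ETO 2, 3 or 4) and all genes from 138 to 1199. Between PHx48_ETO and PHx48, all genes ranged from 1 to 25. For the difference of the etomoxir effects, variant genes higher ranged from 0 to 1 and all genes from 0 to 239, both highest without PHx24_ETO 1. Poly(A) selection, shared sequence and low counts limit the replication-dependent genes most: 49 of 67 had a mean under 10 counts.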
